A study of Mus musculus with 16 samples.

Results

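Dbp, Tef and Hlf encode the 3 PAR-bZIP transcription factors of liver, and Nfil3 encodes a bZIP repressor that acts on the same DNA sites. They were described here through the BMAL1 binding sites that the authors' consensus table of mouse liver ChIP-seq peaks assigned to them, at any distance. The rule found 16 of the 7043 intervals in that table. Hlf had 10 intervals, Nfil3 had 3, Dbp had 2 and Tef had 1, and 63 of the 9986 deposited peaks lay in them. BMAL1 was immunoprecipitated from liver with a rabbit monoclonal antibody, in 8 libraries that each held 1 combination of sex, treatment and time. The treatments were misaligned and control, the sexes female and male, and the times ZT12 and ZT0 under 12 h of light and 12 h of dark, where ZT0 is lights on. All mice were C57bl6, 8 to 16 weeks old, and ate food in which fat made up 42% of the calories. Each library was pooled from 3 to 4 mice. The labels do not describe the misalignment schedule. Each group had 1 library, so a difference between 2 libraries has no replicate error to be set against, and the 8 IgG libraries were not used here.

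BMAL1 pairs with CLOCK and binds E-boxes, of which the canonical form is CACGTG, in genes that then cycle with the day. DBP, TEF and HLF are basic leucine zipper activators that bind D-boxes, a second class of clock element, and in liver they are known to drive detoxification and lipid genes in a daily rhythm. NFIL3, also called E4BP4, binds the D-box as a repressor, and its own gene is repressed by the REV-ERB receptors. ChIP-seq measures where BMAL1 sits, and it does not measure how much RNA any of these genes made.

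The lists differed greatly in length, which bears on every count of calls. The misaligned lists held 221 peaks in female ZT12, 1330 in female ZT0, 5542 in male ZT12 and 1864 in male ZT0. The control lists held 141 peaks in female ZT12, 225 in female ZT0, 290 in male ZT12 and 373 in male ZT0. No sequencing depth is given. Local background at its lowest, in fragments, was 4.25 to 6.14 in the misaligned libraries and 4.39 to 6.16 in the control libraries. Fold enrichment is the peak caller's ratio of fragments at the summit to the local background, and a larger −log10 q means a call with stronger support.

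4 promoter windows are printed here, each running from 250 bases before to 50 bases after a RefSeq start site on GRCm38.p6. They are shown because BMAL1 peaks lay on all of them and because only the pair at Tef held the E-box letters. In the Tef windows the capitals mark CACGTG, in the Dbp window they mark the 61 bases that a peak covered in every library, and in the Hlf window the 50 bases that held all its summits.
Tef second promoter, chr15:81811164-81811463, plus strand: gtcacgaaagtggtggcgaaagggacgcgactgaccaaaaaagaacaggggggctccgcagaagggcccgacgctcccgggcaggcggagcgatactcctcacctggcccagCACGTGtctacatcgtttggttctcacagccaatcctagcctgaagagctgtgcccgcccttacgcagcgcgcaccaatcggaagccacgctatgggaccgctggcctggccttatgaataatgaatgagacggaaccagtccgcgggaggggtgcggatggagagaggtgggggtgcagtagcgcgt
Tef upstream promoter, chr15:81802423-81802722, plus strand: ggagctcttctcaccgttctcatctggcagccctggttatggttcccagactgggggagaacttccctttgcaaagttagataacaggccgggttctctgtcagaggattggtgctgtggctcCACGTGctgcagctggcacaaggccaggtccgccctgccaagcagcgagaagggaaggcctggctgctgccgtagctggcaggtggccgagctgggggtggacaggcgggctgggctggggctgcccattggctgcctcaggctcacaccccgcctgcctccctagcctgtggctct
Dbp promoter, chr7:45704997-45705296, plus strand: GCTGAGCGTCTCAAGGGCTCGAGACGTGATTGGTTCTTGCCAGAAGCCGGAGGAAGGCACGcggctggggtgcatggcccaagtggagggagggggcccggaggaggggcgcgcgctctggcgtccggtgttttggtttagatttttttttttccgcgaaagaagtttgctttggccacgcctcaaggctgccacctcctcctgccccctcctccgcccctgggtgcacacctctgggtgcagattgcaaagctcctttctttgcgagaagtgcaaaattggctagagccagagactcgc
Hlf promoter, chr11:90390868-90391167, minus strand: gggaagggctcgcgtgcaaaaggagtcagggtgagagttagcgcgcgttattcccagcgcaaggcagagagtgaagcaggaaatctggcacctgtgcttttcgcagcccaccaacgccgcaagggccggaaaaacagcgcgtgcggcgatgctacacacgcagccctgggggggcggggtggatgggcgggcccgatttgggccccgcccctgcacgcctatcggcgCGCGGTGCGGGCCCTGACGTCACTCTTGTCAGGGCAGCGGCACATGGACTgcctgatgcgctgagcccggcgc
In the Tef second promoter the E-box began 138 bases before the start site (81811276 to 81811281), and in the upstream promoter it began 127 bases before the start (81802546 to 81802551). CACGTG is its own reverse complement and was found in 7.15% of the 32851 RefSeq promoter windows. The share was 23.2% of the 2322 windows overlapped by an interval, 11 of the 22 windows overlapped by an interval called in all 8 libraries, and 5.93% of the 30529 windows overlapped by none. The variant CACGTT, which reads AACGTG on the other strand, was in 4.68% of all windows and in no window of the 4 genes. The D-box letters TTATGTAA, which read TTACATAA on the other strand, were in 0.938% of all windows, the palindrome TTACGTAA was in 0.119%, and neither was in a window of the 4 genes. A match is a description of these letters only. The search covered promoter windows only, so the sequence under a summit outside its window was not searched.

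Dbp, Tef and Hlf had a BMAL1 peak in all 8 libraries and Nfil3 had one in 3. Intervals called in all 8 libraries were 34 of 7043, or 0.483% of the table, and 4 of the 16 intervals of these genes were among them. These were both Dbp intervals, the Tef interval and 1 Hlf interval that lies upstream of the gene. A further 1 interval was called in 5 libraries, 4 in 3 libraries, 1 in 2 libraries and 6 in a single library. Of the 7043 intervals of the whole table, 78 were called in 5 libraries, 319 in 3, 859 in 2 and 78.5% in 1 library. Counted by library, 5 of the 16 intervals were called in female misaligned ZT12, 9 in female misaligned ZT0, 14 in male misaligned ZT12 and 11 in male misaligned ZT0. The control libraries had 4 in female ZT12, 5 in female ZT0, 4 in male ZT12 and 5 in male ZT0. In bulk liver, fewer cells with a bound site and less binding per cell cannot be told apart. These counts are high in the 3 longest lists and lie between 4 and 5 in the others. Peaks in these intervals were 6 of the 221 listed in female misaligned ZT12 and 10 of 1330 in female misaligned ZT0. They were 14 of 5542 in male misaligned ZT12 and 12 of 1864 in male misaligned ZT0. In control they were 5 of 141 in female ZT12 and 5 of 225 in female ZT0. The male control lists had 5 of 290 at ZT12 and 6 of 373 at ZT0. The 16 intervals were 272 to 2092 bp wide with a median of 428 bp, against a median of 388 bp over the table.

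**Figure D1:**
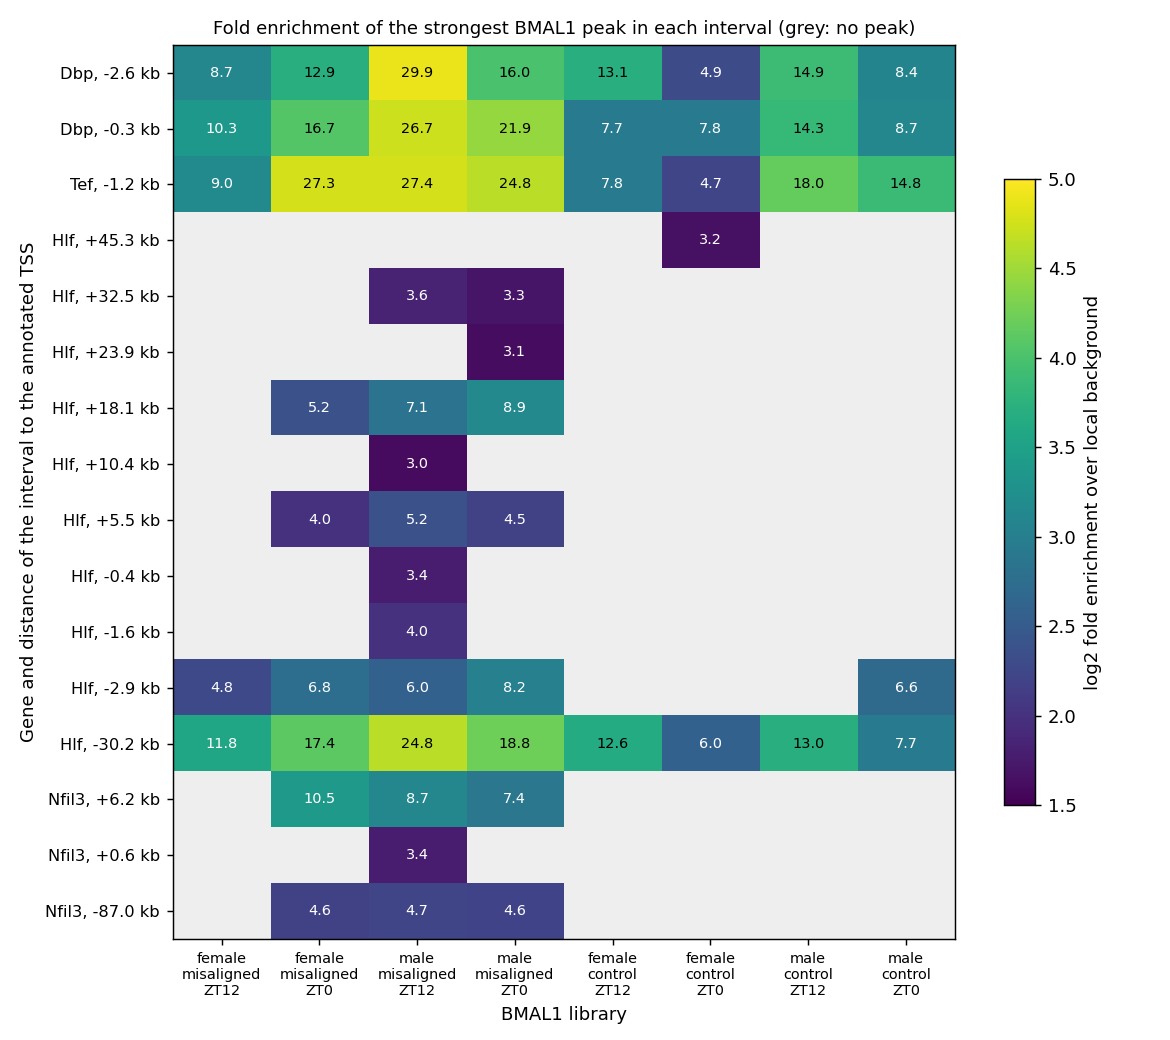
Each row is 1 of the 16 intervals, named by gene and by the authors' distance to the annotated start site in kb, and each column is 1 BMAL1 library. Colour gives log2 fold enrichment of the strongest peak, the printed values are fold enrichment, and grey means no peak: the 2 Dbp rows, the Tef row and 1 Hlf row are filled across all 8 libraries, and the 3 Nfil3 rows are filled in misaligned libraries only.

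Dbp, an output regulator of the clock with a strong daily rhythm in liver, had 2 intervals on chromosome 7 that were called in every library. The first, 45704290 to 45706381, spans the RefSeq start site at 45705247 and also overlaps the end of the neighbouring gene Car11. It held 14 peaks, because 6 libraries had a second peak in it. The strongest summit lay 218 to 422 bases upstream of the start in the 8 libraries. It was outside the printed window in every library but female control ZT12. Fold enrichment at that summit was 8.71 in female misaligned ZT12, 12.9 in female misaligned ZT0, 29.9 in male misaligned ZT12 and 16.0 in male misaligned ZT0. It was 13.1 in female control ZT12, 4.94 in female control ZT0, then 14.9 in male control ZT12 and 8.44 in male control ZT0. The male misaligned ZT12 library was the highest and female control ZT0 the lowest, and the ranges of misaligned and control libraries overlapped. The second peak had its summit at 45706055 to 45706086, a spread of 31 bases, in the 6 libraries that resolved it. In male misaligned ZT12 1 peak of 2092 bp covered the whole interval, and in female control ZT0 no second peak was listed.

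The second Dbp interval, 45706886 to 45708389, lies inside the RefSeq gene. The authors annotated both Dbp intervals as promoter, this one at −252 bp from their start site and the first at −2554 bp. The names Dbp promoter and Dbp gene body used here follow the RefSeq start instead. Summits of the second interval fell within 38 bases of each other over the 8 libraries, at 45707712 to 45707750. They were 2465 to 2503 bases past the RefSeq start. Fold enrichment was 10.3 in female misaligned ZT12, 16.7 in female misaligned ZT0, 26.7 in male misaligned ZT12 and 21.9 in male misaligned ZT0. It was 7.70 in female control ZT12, 7.79 in female control ZT0, then 14.3 in male control ZT12 and 8.71 in male control ZT0. Each misaligned library was above the control library of its own sex and time, although female misaligned ZT12 was below male control ZT12. The −log10 q of this peak was 112 in female misaligned ZT12, 140 in female misaligned ZT0, 302 in male misaligned ZT12 and 176 in male misaligned ZT0, against 58.4 in female control ZT12, 32.0 in female control ZT0, then 127 in male control ZT12 and 52.4 in male control ZT0. By −log10 q it stood between rank 8 and rank 21 of its list in all 8 libraries.

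Tef, the thyrotroph embryonic factor, had 1 interval on chromosome 15, 81810161 to 81811833, called in all 8 libraries. It overlaps the second Tef promoter, whose start is at 81811414, and lies inside the RefSeq gene, which starts at 81802673. The authors placed it at −1162 bp from their annotated start. Summits lay between 81810942 and 81811028, a spread of 86 bases. They were 248 to 334 bases upstream of the E-box printed above, so the highest point was outside the printed window in every library. Fold enrichment was 8.96 in female misaligned ZT12, 27.3 in female misaligned ZT0, 27.4 in male misaligned ZT12 and 24.8 in male misaligned ZT0. It was 7.79 in female control ZT12, 4.69 in female control ZT0, then 18.0 in male control ZT12 and 14.8 in male control ZT0. The misaligned libraries other than female ZT12 were higher than all 4 control libraries. By −log10 q this was the first of 1330 peaks in female misaligned ZT0 and stood at rank 2 of 5542 in male misaligned ZT12 and rank 2 of 1864 in male misaligned ZT0. Its rank in the other lists was 7 of 221 in female misaligned ZT12, 11 of 141 in female control ZT12, 16 of 225 in female control ZT0, 4 of 290 in male control ZT12 and 7 of 373 in male control ZT0. At its summits there were 228, 251, 415 and 292 fragments in the misaligned libraries in the same order, against 157, 72, 202 and 127 in the control libraries. These counts are not scaled for depth, which is unknown. Local background there was 24.6, 8.22, 14.2 and 10.8 fragments in the misaligned libraries, against 19.3, 14.6, 10.3 and 7.62 in the control libraries.

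The upstream Tef promoter lay under an interval that the authors assigned to the neighbouring gene model Gm17597, at −140 bp, and that the rule for these genes therefore left out. It spans 81802273 to 81803234 and was called in 4 libraries. Fold enrichment was 3.55 in female misaligned ZT0, 7.37 in male misaligned ZT12 and 5.19 in male misaligned ZT0, against 4.98 in male control ZT12. The summit lay 31 bases before the first base of the printed E-box in female misaligned ZT0, 4 before it in male misaligned ZT12, 33 before it in male misaligned ZT0 and 32 after it in male control ZT12. E-boxes were searched in the promoter windows only, so the sequence under the summits of the stronger Tef peak was not searched. A further 2 intervals within 10 kb of the RefSeq Tef gene, assigned by the authors to Gm17597 and Gm8444, were called in male misaligned ZT12 alone, at fold enrichments of 2.73 and 7.42.

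**Figure D2:**
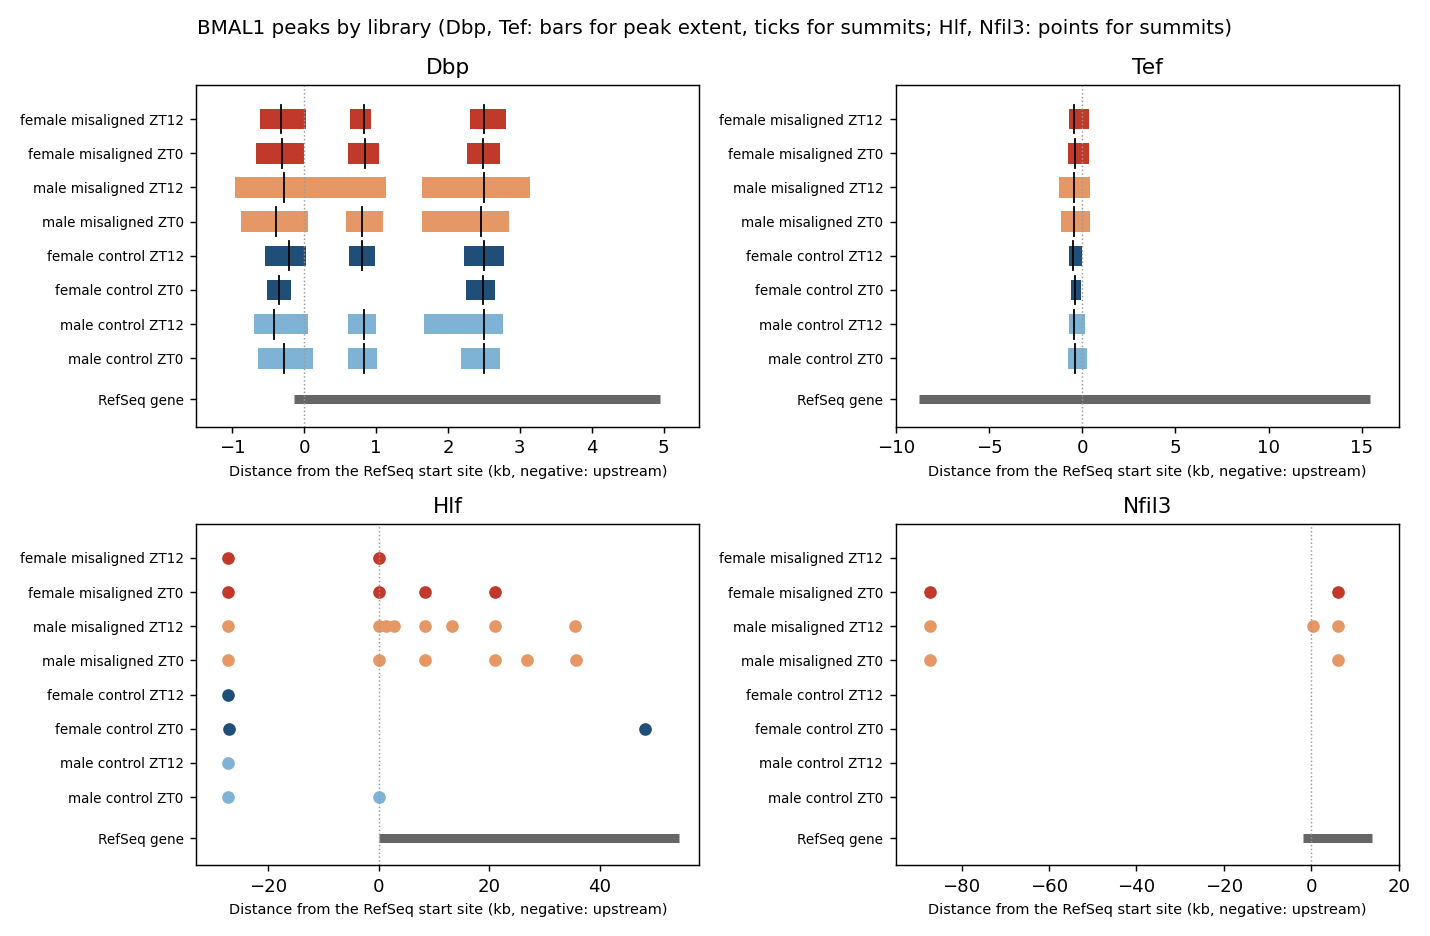
Peaks of each BMAL1 library against distance in kb from the RefSeq start site (dotted line, negative values upstream), with the RefSeq gene as a grey bar; bars and black ticks give peak extents and summits for Dbp and Tef, and points give summits for Hlf and Nfil3. For Tef the dotted line is the second start site, 81811414, and the grey bar begins upstream of it. The Dbp summits form 3 columns, the Tef summits 1 column, Hlf has 1 upstream column in all 8 libraries, and Nfil3 has points in 3 misaligned libraries only.

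Hlf, the hepatic leukaemia factor gene, occupies 54383 bp on the minus strand of chromosome 11 and had the most intervals. The one called in all 8 libraries, 90417768 to 90418532, is annotated as intergenic, and its summits lay 27118 to 27280 bases upstream of the RefSeq start at 90390917. They had a spread of 162 bases, against a median of 69.0 and a range of 2 to 1496 bases over the 30 other intervals called in all 8 libraries. Fold enrichment was 11.8 in female misaligned ZT12, 17.4 in female misaligned ZT0, 24.8 in male misaligned ZT12 and 18.8 in male misaligned ZT0. It was 12.6 in female control ZT12, 5.98 in female control ZT0, then 13.0 in male control ZT12 and 7.66 in male control ZT0. The 3 longest misaligned lists were above all control libraries, and female misaligned ZT12 was below both control libraries of ZT12.

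At the Hlf promoter itself, 90390631 to 90391186, a peak was called in 5 libraries. Fold enrichment was 4.85 in female misaligned ZT12, 6.82 in female misaligned ZT0, 5.98 in male misaligned ZT12 and 8.15 in male misaligned ZT0, against 6.56 in male control ZT0. All 4 misaligned libraries and 1 of 4 control libraries thus had the call. Its summits lay within 26 bases of the RefSeq start, although the authors' table places the interval at −2935 bp from another annotated start.

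The other 8 Hlf intervals lay inside the RefSeq gene, and where called they were weaker than the upstream site in the same library. The one at +18118 bp, in an intron (90369662 to 90370049), had fold enrichments of 5.16 in female misaligned ZT0, 7.11 in male misaligned ZT12 and 8.89 in male misaligned ZT0. The one at +5520 bp (90382166 to 90382740) had 4.01 in female misaligned ZT0, 5.16 in male misaligned ZT12 and 4.51 in male misaligned ZT0. These 2 intervals were called in the same 3 libraries and no other. The interval at +32501 bp had 3.61 in male misaligned ZT12 and 3.26 in male misaligned ZT0. Of the intervals with a single call, those at +10397, −384 and −1562 bp were in male misaligned ZT12, at fold enrichments of 3.04, 3.39 and 4.01, and that at +23947 bp was in male misaligned ZT0, at 3.06. The last, at +45277 bp (90342561 to 90342832), was listed in female control ZT0 alone, at 3.16 and rank 200 of 225.

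Nfil3, the D-box repressor gene, lies on the minus strand of chromosome 13 and had no peak in any control library or in female misaligned ZT12. Its strongest interval, 52974461 to 52975252, is in an intron 6217 bp past the annotated start. Fold enrichment there was 10.5 in female misaligned ZT0, 8.68 in male misaligned ZT12 and 7.40 in male misaligned ZT0, with −log10 q of 50.4, 38.3 and 22.0. The summits were at 52974875, 52974900 and 52974880 in those libraries. The peak stood at rank 43 of 1330 in female misaligned ZT0, rank 257 of 5542 in male misaligned ZT12 and rank 139 of 1864 in male misaligned ZT0. An intergenic interval at −87006 bp, 53067857 to 53068302, was called in the same 3 libraries at 4.58, 4.70 and 4.61. The third interval, at +582 bp (52980294 to 52980688), was called in male misaligned ZT12 alone, at 3.40 and with −log10 q of 4.65. With every list shortened to its 141 strongest peaks, Nfil3 was called in 2 libraries, without male misaligned ZT12. No peak overlapped the Nfil3 promoter window.

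The missing Nfil3 and Hlf calls were set beside the general level of enrichment in each library. At the 34 intervals called in all 8 libraries the median fold enrichment was 2.27 times as high in female misaligned ZT0 as in female control ZT0. The ratio was 1.11 for female ZT12, 2.13 for male ZT12 and 1.62 for male ZT0, again misaligned over control. The part of this general difference in the missing Nfil3 and Hlf calls was not tested.

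The call pattern of Nfil3, that is female misaligned ZT0, male misaligned ZT12 and male misaligned ZT0 and no other library, was shared by 185 intervals, or 2.63% of the table. Of the 16 intervals of the 4 genes it was the pattern of 4, namely 2 of Hlf and 2 of Nfil3. Of the 183 other intervals that shared it with a given Nfil3 interval, those with the highest summed −log10 q were at Ccno, Snx9 and Ubald1, at 145, 132 and 116. The Nfil3 intron interval had a summed −log10 q of 111, and the intergenic one 32.1. The pattern of the third Nfil3 interval, male misaligned ZT12 alone, was shared by 4105 others, led by AU019990 at 71.1, Engase at 58.7 and Ccdc88c at 51.3.

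Misaligned and control livers were compared within each sex and time, first by calls. Over the table, 90.0% of the intervals were called in no control library, against 10 of the 16 intervals of these genes, or 62.5%. In female ZT12, 51.6% of the intervals called in either library were called in misaligned and not in control, against 1 of 5 of these genes, the Hlf promoter. The table's share was 84.7% in female ZT0, against 5 of 10 of these genes. It was 94.9% in male ZT12, against 10 of 14, and 81.3% in male ZT0, against 6 of 11. The share among these genes was below that of the table in all 4 pairs, and the same 4 intervals called in all 8 libraries enter each of them.

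Fold enrichment at the 4 sites called in every library was then compared over the 4 pairs. Averaged as a log2 ratio, misaligned over control, it was 0.68 ± 0.87 at the Dbp promoter, 0.94 ± 0.39 in the Dbp gene body, 1.02 ± 1.04 at Tef and 0.92 ± 0.72 at the upstream Hlf site (SD, n = 4 pairs each). The misaligned library was higher in 4 of 4 pairs in the Dbp gene body and at Tef, and in 3 of 4 at the Dbp promoter and the Hlf site. The exact two-sided sign-flip permutation test gave p = 0.125 for the Dbp gene body and for Tef, which is the smallest p that 4 pairs allow, and p = 0.250 for the other two. Adjusted over 12 tests (4 sites and 3 contrasts, Benjamini-Hochberg), the permutation p-values were 0.300 for the Dbp gene body and Tef and 0.333 for the Dbp promoter and the Hlf site. The design cannot reach 0.05, and no difference was called.

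The median of the 34 intervals called in all 8 libraries moved the same way, by 0.78 on the log2 scale, and was higher in misaligned libraries in 4 of 4 pairs. With each library's median subtracted, the mean log2 ratio, misaligned over control, was −0.10 at the Dbp promoter, 0.15 in the Dbp gene body, 0.24 at Tef and 0.14 at the Hlf site. These remainders were smaller than their SDs over pairs, which were 0.45, 0.37, 0.79 and 0.41. The largest single difference was at Tef in female ZT0, where the ratio was 5.83-fold, misaligned over control, or 2.54 on the log2 scale, against 1.19 for the median of the 34 intervals. Without that pair the mean log2 ratio at Tef was 0.52. At the Dbp promoter in female ZT12 the ratio went the other way, at −0.59, while the median moved by 0.16. Summit fragments there were 162 in misaligned and 165 in control, over local backgrounds of 17.7 and 11.6.

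**Figure D3:**
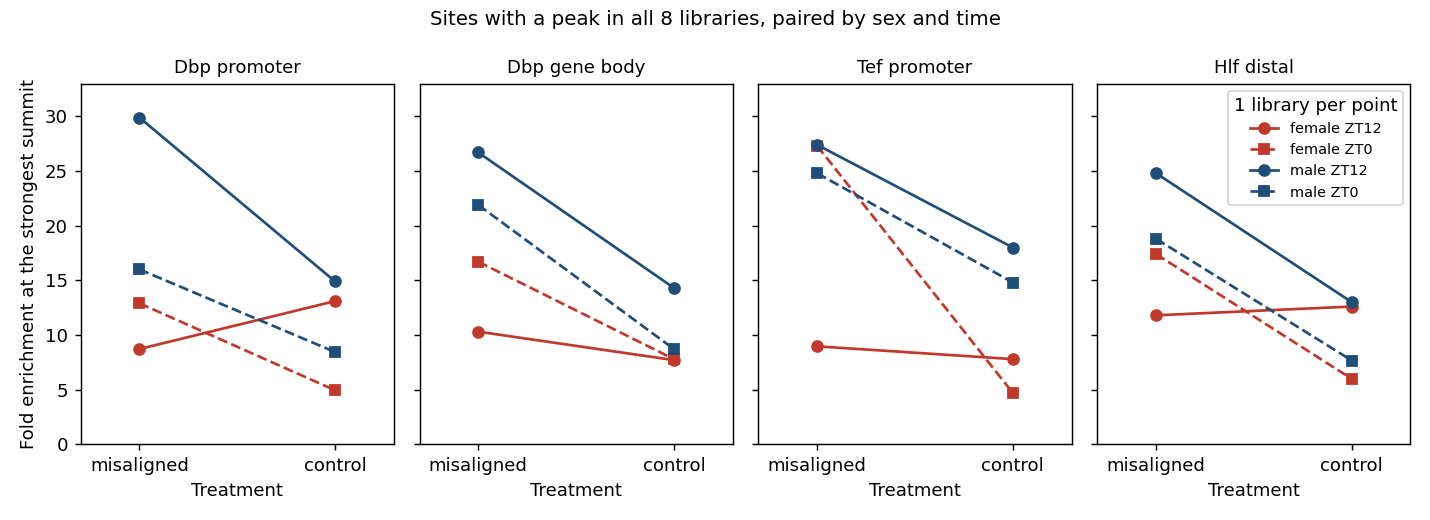
Fold enrichment (linear axis, 1 library per point) at the 4 sites with a peak in every library, with misaligned on the left, control on the right and a line joining the libraries of 1 sex and time. Lines fall to the right in 4 of 4 pairs for the Dbp gene body and Tef and in 3 of 4 for the Dbp promoter and the Hlf site, where the female ZT12 line runs upward.

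Female libraries were lower than male ones at these sites. The mean log2 ratio, female over male, was −0.76 ± 0.72 at the Dbp promoter, −0.71 ± 0.54 in the Dbp gene body, −1.09 ± 0.84 at Tef and −0.39 ± 0.47 at the Hlf site (SD, n = 4 pairs each). Female was lower in 4 of 4 pairs at both Dbp sites and the Hlf site, and in 3 of 4 at Tef, where misaligned ZT0 gave 0.14. The exact permutation p was 0.125 for the Dbp promoter, the Dbp gene body and the Hlf site, and 0.250 for Tef, with adjusted values of 0.300 and 0.333. The median of the 34 intervals differed by −0.71 and was lower in females in 4 of 4 pairs. With the medians subtracted, the ratio was −0.05 at the Dbp promoter, 0.00 in the Dbp gene body, −0.38 at Tef and 0.31 at the Hlf site. The Hlf site thus changed sign: relative to the library median it was higher in females in 4 of 4 pairs (SD 0.23, exact permutation p = 0.125, adjusted p = 0.750).

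Between ZT12 and ZT0 the median of the shared intervals moved by −0.02 on the log2 scale on average, with opposite signs in different pairs. It moved by −0.87 in female misaligned, 0.52 in male misaligned, 0.16 in female control and 0.13 in male control. The mean log2 ratio, ZT12 over ZT0, was 0.64 ± 0.85 at the Dbp promoter, 0.07 ± 0.59 in the Dbp gene body, −0.11 ± 1.03 at Tef and 0.42 ± 0.71 at the Hlf site (SD, n = 4 pairs each). The exact permutation p-values were 0.250, 0.750, 1.00 and 0.375, and after adjustment 0.333, 0.818, 1.00 and 0.450. In female misaligned livers fold enrichment was lower at ZT12 than at ZT0 at all 4 sites, by log2 ratios of −0.57, −0.69, −1.61 and −0.57 in the same order. Local background in that pair was higher at ZT12, at 17.7, 16.6, 24.6 and 12.0 fragments against 8.61, 9.15, 8.22 and 8.01 at ZT0. Summit fragments were 162, 180, 228 and 152 at ZT12 against 123, 168, 251 and 156 at ZT0. The part of background in these ratios was not tested. With the medians subtracted the Dbp promoter was higher at ZT12 in 4 of 4 pairs, by 0.66 ± 0.43 (SD, n = 4, exact permutation p = 0.125, adjusted p = 0.750), and the Dbp gene body gave 0.09 ± 0.38. With the median taken over the 26 shared intervals of low background, a choice made after seeing the data, the Dbp promoter gave 0.46 and was no longer higher in every pair (exact permutation p = 0.250). From background-subtracted summit fragments, without subtraction of a median, the values were 0.90 at the Dbp promoter and 0.61 in the Dbp gene body. The pair of Dbp sites lie in 1 gene and share every library, and the difference between them was not tested.

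**Figure D4:**
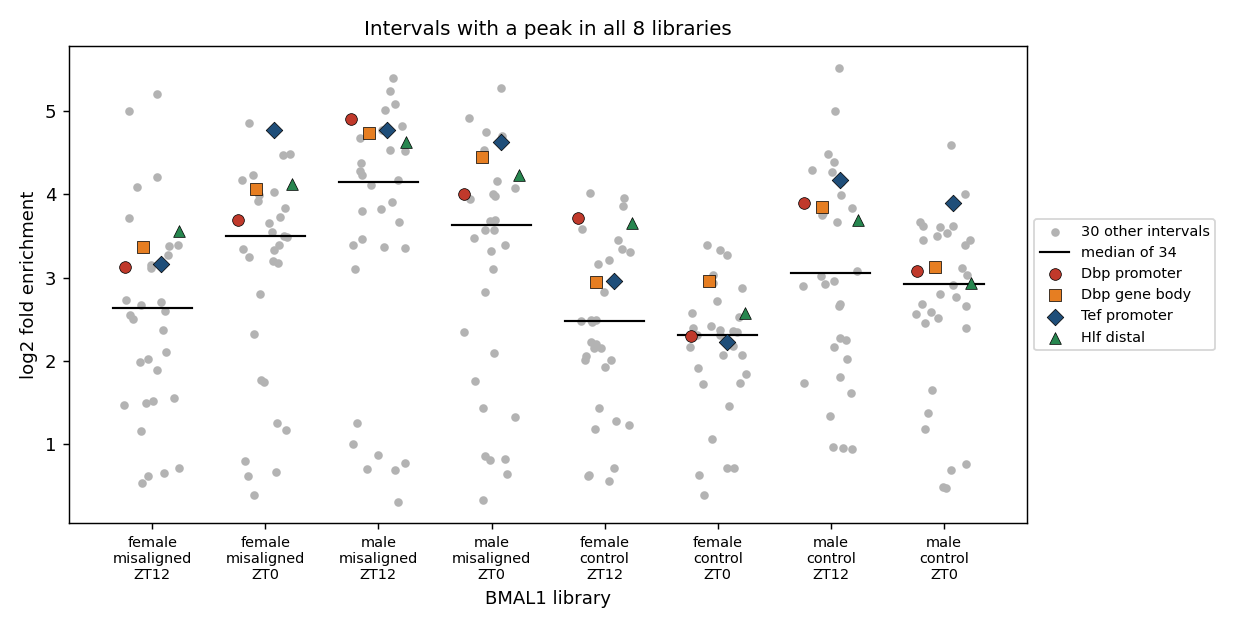
Log2 fold enrichment of the 34 intervals with a peak in all 8 libraries, by library, with the 4 sites of Dbp, Tef and Hlf as coloured symbols, the 30 others as grey points and the median of all 34 as a line. The line is highest, at 4.14, in male misaligned ZT12 and lowest, at 2.31, in female control ZT0, and the coloured symbols are highest or lowest in the same 2 libraries for the Dbp promoter, Tef and the Hlf site.

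Among the 34 shared intervals the 4 sites stood mostly in the upper part. Their rank by fold enrichment was 4 to 19 at the Dbp promoter, 5 to 13 in the Dbp gene body, 2 to 20 at Tef and 5 to 17 at the Hlf site over the 8 libraries. The lowest ranks of the Dbp promoter and Tef, 19 and 20, both fell in female control ZT0. These ranks count all 34 intervals, of which 8 held a peak of high local background (limit 5 times the lowest of its library). After the library median was subtracted, the Dbp promoter and the Hlf site varied together over the 8 libraries (Pearson r = 0.74), while the Dbp promoter and the Dbp gene body did so little (r = 0.11). These correlations are descriptions over 8 libraries that share the same backgrounds and peak caller. Before the medians were subtracted, the 6 pairs among the 4 sites had r of 0.78 to 0.93.

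The intervals most like each site, by r over the 8 libraries after the same subtraction, were named by rule. For the Dbp promoter they were the interval at −12999 bp from Nr1d1, which encodes REV-ERBα (r = 0.82), and the Hlf site. For the Dbp gene body they were Nr1d2, which encodes REV-ERBβ (0.66), and RP23-134H19.3 (0.64). For Tef they were Bnip3, a mitophagy receptor gene (0.55), and Per3, a period gene (0.48). For the Hlf site they were the Dbp promoter and RP23-134H19.3 (0.69).

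The genes that surround these factors in the clock were read in the same way, as genes with a peak within 10 kb of the authors' start site. Over 21900 RefSeq protein-coding genes the share with such a peak was 0.457% in female misaligned ZT12, 2.94% in female misaligned ZT0, 8.90% in male misaligned ZT12 and 3.52% in male misaligned ZT0. It was 0.242% in female control ZT12, 0.411% in female control ZT0, then 0.484% in male control ZT12 and 0.804% in male control ZT0. Of Dbp, Tef, Hlf and Nfil3, 3, 4, 4 and 4 had one in the misaligned libraries in that order, against 2, 2, 2 and 3 in the control libraries. Of 18 other core clock genes, 8 to 9 had one in each library. 8 of them had one in all 8 libraries, namely Per1, Per2, Cry1, Cry2, Nr1d1, Nr1d2, Bhlhe40 and Ciart, which all encode repressors of the clock.

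Some clock genes known to carry D-boxes, and so to be read by DBP, TEF, HLF and NFIL3, had BMAL1 peaks themselves. Of 8 such genes, 5 had one in every library, namely Per1, Per2, Cry1, Nr1d1 and Nr1d2, all of which also stand among the core clock genes. No other of the 8 had one within 10 kb in any library. Liver genes known as targets of PAR-bZIP factors or NFIL3 had peaks less uniformly. Of 15, the number with a peak was 2 in female misaligned ZT12, 3 in female misaligned ZT0, 9 in male misaligned ZT12 and 2 in male misaligned ZT0. In the control libraries it was 0 in female ZT12, 0 in female ZT0, 2 in male ZT12 and 1 in male ZT0. Ppara, a nuclear receptor of fatty acid oxidation, had one in 6 libraries, and Por, the reductase that serves the cytochromes P450, in 5. Cyp2a5, a coumarin hydroxylase, had one in 2 libraries, and Cyp7a1, which encodes the enzyme that starts bile acid synthesis, and Fgf21, a hepatic hormone gene, had one in male misaligned ZT12 alone.

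Of 6 C/EBP relatives, bZIP factors of another family, 2 had a peak, Cebpa and Cebpg, both in male misaligned ZT12 alone, where 8.90% of all protein-coding genes had one. Of 10 hepatocyte marker genes, 3 had a peak (Apoe, Serpina1a and Cps1), again in that library alone, and of 15 markers of other liver cells none had one within 10 kb. A peak near a marker does not measure its expression, so the tissue label could not be checked from these files.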

How the data were processed

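BMAL1 ChIP-seq was analysed from 8 deposited peak lists and 1 consensus table. Per the submitters' processing notes, reads were processed with BWA 0.7.17-r1188 and MACS2 2.2.7.1 on GRCm38. The q threshold, genome size, sequencing depth and use of the IgG libraries as control are not given in the sources used here. The authors deposited for each peak a score, which by its values is 10 times −log10 q with decimals cut off. The fold enrichment, a ratio, and 2 columns of −log10 values for p and q were likewise deposited as the authors' peak caller wrote them. The lowest −log10 q listed was 1.30 to 1.42.

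An interval of the consensus table belonged to a gene when its gene name was Dbp, Tef, Hlf or Nfil3. A library was called at an interval when a peak of its list overlapped it by at least 1 bp. The strongest peak was used where a list had several. Fold enrichment and −log10 p were solved together for the whole number of summit fragments and for the local background (relative tolerance 0.0001), which succeeded for 100% of the peaks of each list. The recovery, the overlap and the sign-flip test were tested on simulated data. Each contrast used 4 log2 ratios paired by the labels, tested by exact sign-flip permutation (two-sided), with Benjamini-Hochberg adjustment over 12 tests. Counts of fragments carry counting error only, and p-values measure only the spread between pairs.

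Genes named beyond the 4 were the 2 shared intervals most like each site, the 3 strongest intervals with the call pattern of each Nfil3 interval, and up to 8 members of each pathway list with a peak in the most libraries. For the liver target list, genes with a peak in a single library were named by 2 examples. Promoter windows came from the RefSeq table on GRCm38.p6, and a genome for the summits was not used here. The members, lists and tests were chosen with earlier results of these data known. Alternatives were stricter −log10 q, distance limits of 10 kb and 1 kb, overlap of at least 50%, lists of equal length, RefSeq gene bodies, other measures of strength, subtraction of the library median and leaving out each pair. Leaving out male misaligned ZT12, and a median over shared intervals of low background, were added after seeing the data. Software was Python 3.11.15 with pandas 2.3.3, numpy 2.4.6, scipy 1.17.1 and matplotlib 3.10.9.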

Additional observations from a re-analysis of the deposited data

Results flagged for a closer look

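At 3 of the sites called in every library 1 pair of libraries went against the other 3, and none of these differences was tested. At the Dbp promoter the log2 ratio, misaligned over control, was −0.59 in female ZT12, while the other 3 pairs were above 0. The upstream Hlf site had −0.10 in the same pair. Local background at these sites was higher in the misaligned library of that pair, at 17.7 against 11.6 and 12.0 against 8.82 fragments. For ZT12 over ZT0, female misaligned was the pair that differed at 3 sites, with −0.57 at the Dbp promoter, −1.61 at Tef and −0.57 at the Hlf site. Local background at these 3 sites was higher at ZT12 than at ZT0 in that pair, with the values given above. At Tef the female over male log2 ratio was 0.14 in misaligned ZT0 and below 0 in the other 3 pairs. The median of the 34 shared intervals in these pairs moved by 0.16 in female ZT12 (misaligned over control), −0.87 in female misaligned (ZT12 over ZT0) and −0.13 in misaligned ZT0 (female over male).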

How the results depend on the processing

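Depth is unknown and each group had 1 library, so the length of a list limits every count of calls. No paired analysis by replicate number was possible because each group had 1 library and all carried the same number. The pairs tested here were formed by sex, treatment and time. With −log10 q of at least 3, the intervals of these genes called were 13 in male misaligned ZT12 and 4 in female control ZT0. With −log10 q of at least 10 they were 9 in male misaligned ZT12 and 8 in male misaligned ZT0. They were 7 in female misaligned ZT0 and 4 in female control ZT0. The other libraries kept their counts at both limits. Within 10 kb of the annotated start the intervals called were 9 in male misaligned ZT12 and 6 in male misaligned ZT0. They were 4 in female misaligned ZT12 and 6 in female misaligned ZT0. Of the control libraries, male ZT0 had 4 and the others had 3 each, and Hlf was called in 5 libraries. Within 1 kb of the authors' start sites they were 3 in male misaligned ZT12 and 1 in each other library. Dbp then counted through its gene body site alone, Tef was called in 0 libraries, Hlf in 1 and Nfil3 in 1. With an overlap of at least 50% they were 2 in female misaligned ZT12, 7 in female misaligned ZT0 and 9 in male misaligned ZT0. They were 1 in female control ZT12, 2 in female control ZT0 and 3 in each male control library. Dbp was then called in 3 libraries and Tef in 6. With all lists shortened to 141 peaks they were 4 in male misaligned ZT12, 7 in male misaligned ZT0 and 6 in place of 9 in female misaligned ZT0. Female control ZT0 had 4, and Nfil3 was called in 2 libraries. With RefSeq gene bodies plus 10 kb, Hlf was called in 6 libraries in place of 8. The intervals were then 4 in female misaligned ZT12, 8 in female misaligned ZT0, 15 in male misaligned ZT12 and 10 in male misaligned ZT0. In control they were 3 in female ZT12 and 4 in each other library. Without the male misaligned ZT12 library, 6 in place of 10 intervals were called in misaligned and in no control library.

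Subtraction of the median of the shared intervals turned the mean log2 ratio to −0.10 at the Dbp promoter (misaligned over control), 0.00 in the Dbp gene body and 0.31 at the Hlf site (both female over male). With the median of the 26 shared intervals of low background it was −0.13 at the Dbp promoter (misaligned over control), 0.06 there, 0.11 in the Dbp gene body and 0.43 at the Hlf site (female over male), and −0.11 in the Dbp gene body (ZT12 over ZT0). As background-subtracted fragments over the lowest local background of the library, Tef gave 0.55 for ZT12 over ZT0. The Dbp gene body gave 0.61 in place of 0.07. Leaving out 1 pair turned ZT12 over ZT0 at 2 sites: it ranged from −0.39 to 0.39 at Tef, with 0.39 without the female misaligned pair, and from −0.14 to 0.33 in the Dbp gene body, with −0.14 without the male control pair. The cause of these changes was not tested.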
